A study of Mus musculus with 47 samples.

Results

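The T-box, Gata and Sox transcription factors were the protein-coding genes whose mouse symbol is Tbx, Gata or Sox followed by a number. The rule found 38 genes, 6 Gata, 19 Sox and 13 Tbx, among the 53402 genes of the adult table and the 55471 genes of the neonatal table, and all 38 were listed in both. It used names only and no measured value. Of the 38, 30 adult and 34 neonatal members had enough counts to be tested.

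RNA was sequenced from medullary thymic epithelial cells (mTECs) of C57BL/6 mice, sorted from the thymus by high (mTEChi) or low (mTEClo) surface MHC class II. Adult mice were WT (8 mTEClo and 7 mTEChi libraries, 4 to 5 weeks, both sexes) or AireKO, which lack the transcriptional regulator Aire in every cell (4 and 4 libraries, 5 to 6 weeks, males). Neonatal mice were Ctrl (3 mTEClo libraries at 1 to 3 days, 5 mTEChi at 1 to 6 days), EEDcKO (4 and 3, 1 to 6 days), AireKO (3 mTEChi, 4 to 6 days) or AireEEDdKO (3 and 3, 4 to 6 days). In EEDcKO and AireEEDdKO mice, Eed, a core subunit of the Polycomb repressive complex PRC2, was floxed and deleted by Cre driven from Foxn1, so the deletion reached all thymic epithelial cells that use this promoter, cortical ones included, and its absence in each sorted cell was not measured. Which alleles the neonatal Ctrl mice carried is not given in the sources used here, and some neonatal libraries pooled pups of both sexes. The labels do not say which other libraries came from separate mice, so p-values measure the spread between these libraries. Some libraries lay closer to each other than to the rest of their group. In adult mTEChi AireKO, chi-square per degree of freedom between libraries was 1.34 for replicates 1 and 2 and 1.28 for 3 and 4. Across these pairs, of 5 and 6 weeks, it was 4.01 to 6.42. Adult mTEChi WT replicates 1 and 2 (1.23) were also close. If such pairs share mice, p-values are too small, and a fit without 1 library still holds its twin.

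Gata proteins are zinc-finger factors that bind GATA motifs and set the fate of blood, heart and gut cells. Sox proteins bend DNA through an HMG box and act in stem cells, neural crest, cartilage and many epithelia, and T-box proteins, named after Brachyury, pattern mesoderm, limbs, heart and the pharynx from which the thymus forms. Genes of all these families are textbook Polycomb targets, kept silent by H3K27 methylation in cells that do not use them, while Aire in mTECs switches on many genes that belong to other tissues.

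Library totals ran from 1602125 to 3938588 counts in adults and from 1578579 to 4817418 in neonates. Aire averaged 818 ± 56 CPM (read counts scaled to library size with factors from the trimmed mean of M values; SD, n = 7) in adult mTEChi WT and 29.3 ± 11.6 (n = 4) in AireKO, and Eed averaged 29.1 CPM in neonatal mTEChi Ctrl and 14.8 in EEDcKO, where RNA of the floxed gene was still counted. All 10 epithelial marker genes were detected in every library. In 6 adult AireKO libraries, all 4 mTEChi and mTEClo replicates 3 and 4, no mitochondrial gene had a count, while the other 17 adult libraries had 6178 to 10339 such counts, so in adult mTEChi the loss of Aire and this difference between libraries cannot be told apart. In bulk RNA, fewer cells that use a gene and less RNA per cell cannot be told apart either.

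Promoter windows show how much these genes differ in CpG dinucleotides, which are dense where PRC2 is most often found in mammals. The RefSeq windows, the 250 bases before each start on GRCm38.p6, matched 26 of the 38 members with 35 windows. The median window held 11 CpG in the members and 6 over all 32851 promoter windows; it held 22 in Gata (5 windows), 14 in Sox (18) and 6.5 in Tbx (12). The 6 windows printed here belong to members on which the results below turn, 4 that were higher without EED and 2 that were lower without Aire, read 5′ to 3′ with each CpG in capitals. Gata2 is at chr6:88193641-88193890 (plus strand, 22 CpG), Gata3 at chr2:9878601-9878850 (minus, 19 CpG, all of it inside an exon of the noncoding gene Gm13256), Sox2 at chr3:34649745-34649994 (plus, 27), Sox11 at chr12:27342719-27342968 (minus, 17), Tbx4 at chr11:85896515-85896764 (plus, 6) and Tbx19 at chr1:165160774-165161023 (minus, 7).
Gata2: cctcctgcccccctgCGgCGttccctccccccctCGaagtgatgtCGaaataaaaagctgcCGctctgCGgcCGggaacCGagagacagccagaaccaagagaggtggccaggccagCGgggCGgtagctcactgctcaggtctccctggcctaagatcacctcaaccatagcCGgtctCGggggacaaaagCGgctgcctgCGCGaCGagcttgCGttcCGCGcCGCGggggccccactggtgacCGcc
Gata3: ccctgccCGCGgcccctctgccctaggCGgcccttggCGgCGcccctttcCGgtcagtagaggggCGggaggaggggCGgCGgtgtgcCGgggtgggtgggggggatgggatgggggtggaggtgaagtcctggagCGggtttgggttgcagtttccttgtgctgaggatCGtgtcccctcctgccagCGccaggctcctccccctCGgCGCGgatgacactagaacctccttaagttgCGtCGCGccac
Sox2: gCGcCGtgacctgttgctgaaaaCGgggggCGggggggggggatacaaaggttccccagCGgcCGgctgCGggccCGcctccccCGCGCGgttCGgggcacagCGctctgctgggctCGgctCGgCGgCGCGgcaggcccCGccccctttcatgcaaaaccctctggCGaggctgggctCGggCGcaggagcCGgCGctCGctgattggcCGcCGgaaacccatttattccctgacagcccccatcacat
Sox11: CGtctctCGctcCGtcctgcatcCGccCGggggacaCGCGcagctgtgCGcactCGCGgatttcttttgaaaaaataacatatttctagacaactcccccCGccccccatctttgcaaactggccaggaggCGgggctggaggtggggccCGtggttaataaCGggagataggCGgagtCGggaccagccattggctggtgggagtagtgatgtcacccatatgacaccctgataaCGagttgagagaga
Tbx4: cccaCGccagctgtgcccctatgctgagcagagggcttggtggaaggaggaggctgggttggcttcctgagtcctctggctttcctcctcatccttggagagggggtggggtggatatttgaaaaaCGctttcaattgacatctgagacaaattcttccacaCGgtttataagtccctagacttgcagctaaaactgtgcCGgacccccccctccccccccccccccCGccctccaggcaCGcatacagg
Tbx19: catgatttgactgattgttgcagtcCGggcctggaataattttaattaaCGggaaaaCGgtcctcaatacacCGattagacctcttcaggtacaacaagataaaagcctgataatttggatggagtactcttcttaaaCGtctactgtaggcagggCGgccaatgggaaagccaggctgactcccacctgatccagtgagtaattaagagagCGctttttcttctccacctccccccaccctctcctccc
The windows of Gata2, Gata3, Sox2 and Sox11 held more CpG than the median window of all promoters, and those of Tbx4 and Tbx19 were near that median. The Gata3 and Tbx4 windows lie inside the annotated genes, before an internal start. For Sox2 and Sox11, bases just after the RefSeq start were not found in an annotated transcript of the gene. The printed windows do not stand for their lists: of the 7 members lower without Aire at both ages, 6 had a window, with a median of 14.5 CpG, and Gata2 (in the window printed here), Gata5 and Tbx20 among them held 22 each. On either strand, the motif of Gata factors, AGATAA, stood in 8.57% of the members' windows (3 of 35) and 9.99% of all, and the T-box motif TCACACC in 2.86% (1 of 35) and 3.33%. The Sox motif, spelled ACAAAG and in a second form ACAATG, stood in 28.6% (10 of 35) and 25.2%. None of the 5 Gata windows held any of these motifs, and the AGATAA of Tbx19 lies in the window printed above. Promoters of Gata4, Gata6, Sox3, Sox7, Sox9, Sox10, Sox17, Sox18, Tbx2, Tbx3, Tbx5 and Tbx15 were not analysed here.

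Sox4 and Sox9 were the most abundant members per length in WT and Ctrl mTECs. Levels between genes are compared here as CPM per kilobase of exon. In adult mTEClo WT, Sox4, a SoxC factor, stood at 65 ± 10.7 and Sox9, the master factor of cartilage that also acts in many epithelial progenitors, at 55.1 ± 6.86 (SD, n = 8). These spreads overlapped, while the next gene, Sox7, stood at 7.58 ± 1.66. In adult mTEChi WT, Sox4 had 34.6 ± 3.85, Sox9 23.9 ± 4.81 and Tbx21 23.7 ± 3.44 (n = 7), followed by Tbx15 at 12.4 ± 0.982. Sox9 and Tbx21 did not differ beyond their spread. Neonatal Ctrl mTEChi had the same leading genes, Sox4 at 29.7 ± 1.53, Sox9 at 20.6 ± 4.01, Tbx15 at 12.1 ± 1.42 and Tbx21 at 11.9 ± 2.57 (n = 5). The exons of Sox4 overlapped those of the noncoding gene Gm26735 on the other strand over 54.6% of their length, and since reads were counted without strand, the Sox4 value is uncertain. The same holds in part for Tbx18 (20.6% of exon length), Sox21 (18.8%), Sox17 (16.8%) and Sox8 (10.6%).

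Most T-box genes were higher in mature than in immature mTECs. In adult WT cells, 10 of 12 tested Tbx genes were higher in mTEChi, 3 of 4 Gata genes were higher, and of 14 Sox genes 3 were higher and 5 lower. A gene is called higher or lower here at an adjusted p under 0.05 with a change of at least 2-fold in edgeR's quasi-likelihood test. Over all 19310 genes tested in this comparison, 23.7% were called higher and 12.4% lower. The median log2 difference was 3.76 over the Tbx genes, 2.67 over the Gata genes and -0.14 over the Sox genes, against 0.00 over all genes.

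Tbx20, a heart factor, ranged from 0 to 1.28 CPM (median 0.549) in mTEClo and from 24.6 to 55.2 (median 34.4) in mTEChi, a log2 difference of 5.62 ± 0.31 (SE; edgeR, adjusted p = 1.78e-15). Tbx21, which encodes T-bet, the factor of type 1 immune cells, ranged from 1.28 to 6.1 CPM (median 3.91) in mTEClo and from 41.5 to 66.8 (median 60.7) in mTEChi (4.05 ± 0.21, adjusted p = 2.89e-16). The groups did not overlap for either gene. Tbx5, a factor of heart and forelimb, stood at 0 to 1.53 CPM (median 0.587) and 13 to 26.1 (median 18.9). Tbx3, a transcriptional repressor that acts in limb and heart development, stood at 2.1 to 6.87 (median 4.84) and 36.8 to 70.7 (median 53.3). Their log2 differences were 4.89 ± 0.32 and 3.48 ± 0.19. Tbx4, the hindlimb counterpart of Tbx5, had 2 counts in all 8 mTEClo libraries and 99 in the 7 mTEChi libraries, a pooled ratio of 64.9 (95% counting interval 17.5 to 544). Tbx22, a palate factor, had no count in mTEClo and was at least 26.7-fold higher in mTEChi (against a floor of 3 counts over the group). Genes this low in mTEClo, such as Tbx4 and Tbx22, could pass the low-count filter only through groups where they were higher. The filter thus favoured their direction. With 10 counts required in every library of a group, 9 members were higher in mTEChi and 4 lower. Among Gata genes, Gata4, which directs heart and endoderm, rose from a median of 2.58 CPM (1.05 to 4.02) to 33.8 (25.4 to 36.4), by 3.77 ± 0.20.

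The Sox genes that were lower in mature cells included the SoxD gene Sox13, the SoxF gene Sox7 and Sox9. Sox13 ranged from 22.9 to 34.5 CPM (median 31.1) in mTEClo and from 3.1 to 12.5 (median 6.6) in mTEChi (log2 -2.11 ± 0.18, adjusted p = 2.35e-11). Sox9 ranged from 184 to 271 CPM (median 229) and from 70.2 to 124 (median 105; log2 -1.19 ± 0.11, adjusted p = 2.93e-10). The groups did not overlap for either gene. Sox21, a SoxB2 factor, went the other way, from a median of 11.1 CPM (8.06 to 16.2) to 40.3 (31.1 to 52.5), and so did Sox6, a SoxD gene, from 3.27 (1.72 to 4.8) to 16.1 (11.4 to 26.3). Myeloid and dendritic marker genes, summed, moved the same way as the rising members (39.3 to 70.6 CPM in mTEClo, 338 to 406 in mTEChi; 12 of 12 tested higher). Thymocyte markers (39.1 to 57.8 and 103.5 to 136.9 CPM; 7 of 9 higher, 1 lower), endothelial markers (52 to 73.8 and 91.5 to 129 CPM; 5 of 8 higher) and erythroid and mast cell markers (123 to 203 and 209 to 261 CPM; 3 of 4 higher) were also higher in mTEChi. The part of these markers in the members' values was not tested.

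Neonatal cells had many of the same T-box genes higher in mTEChi. Ctrl mTEChi had 15 members higher and 1 lower than mTEClo, with 8 of 13 Tbx, 3 of 5 Gata and 4 of 16 Sox genes higher, where 13.8% of all genes were called higher and 6.92% lower. Of the 16 adult and 15 neonatal members that were higher, 10 were shared (62.5% and 66.7% of each list), namely Gata2, Gata4, Tbx3, Tbx4, Tbx5, Tbx15, Tbx18, Tbx19, Tbx20 and Tbx21. For each of these except Gata2 the log2 value was larger in adults, for example 5.62 against 2.10 ± 0.49 for Tbx20, but ages were fitted in separate tables and the difference between them was not tested. The neonatal call of Tbx5 was lost without mTEClo Ctrl replicate 1 or 3, that of Tbx18 without replicate 2 and that of Tbx21 without replicate 3. Sox12, a SoxC gene, was lower in mTEChi at both ages. Cortical epithelial markers were lower in Ctrl mTEChi than in mTEClo (387 to 1072 and 2362 to 3605 CPM, summed; 6 of 8 lower). Myeloid and dendritic (5 of 13 tested; 341 to 388 and 126 to 209 CPM), endothelial (4 of 8; 83.8 to 118 and 37.7 to 48.3 CPM) and mesenchymal markers (4 of 11 higher, 1 lower; 469 to 512 and 408 to 551 CPM) included genes that were higher, and their part in the members' values was not tested. In AireKO adults, 8 of 12 Tbx genes were higher in mTEChi, and over all members 11 were higher and 9 lower (18.5% and 16.7% of all genes). With only the libraries without mitochondrial counts (all 4 mTEChi and mTEClo replicates 3 and 4), 12 of these 20 calls were left. When 1 library was left out in turn, the call of Tbx4 was lost in 7 of 8 fits and that of Tbx1 in 5 of 8. In EEDcKO neonates, 7 of 13 Tbx genes were higher and 12 members in all, with 2 lower (14.2% and 7.67% of all genes).

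**Figure D1:**
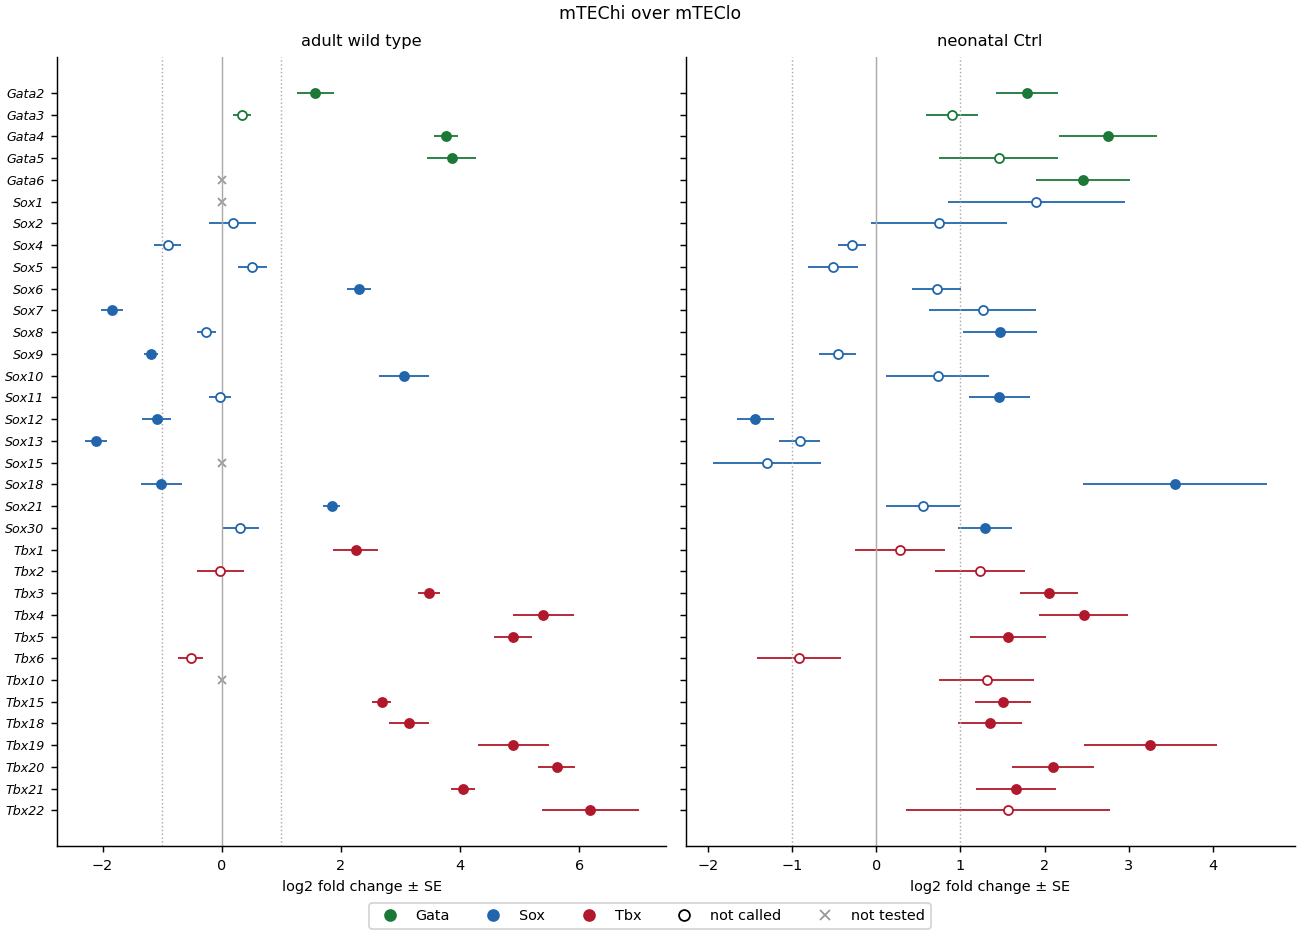
Log2 fold change of mTEChi over mTEClo for each tested Gata, Sox and Tbx gene in adult wild-type (8 and 7 libraries) and neonatal Ctrl mice (3 and 5), with bars of 1 SE; filled points passed the test with at least a 2-fold change, open points did not, and a cross at 0 marks a gene that was not tested. Dotted lines mark 2-fold. In adults 10 of 12 Tbx genes lie on the right as filled points, while the Sox genes fall on both sides.

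Loss of EED raised many Gata and Sox genes in neonatal mTECs of both kinds and a smaller share of the T-box genes. Of the tested Tbx genes, 30.8% were called in mTEChi and 23.1% in mTEClo, against 13.9% and 15.7% of all genes. In mTEChi, EEDcKO had 16 members higher and 2 lower than Ctrl, 3 of 5 Gata, 10 of 16 Sox and 3 of 13 Tbx genes being higher, while over all 20196 genes tested 8.48% were called higher and 5.4% lower. In mTEClo, 14 members were higher (3 Gata, 9 Sox and 2 Tbx) and 1 was lower, against 9.51% and 6.22% of all genes. The lists shared 12 higher members, 75% of the mTEChi list and 85.7% of the mTEClo list, namely Gata2, Gata3, Gata6, Sox2, Sox5, Sox7, Sox8, Sox11, Sox12, Sox13, Tbx1 and Tbx2, and Tbx20 was lower in both. The median log2 change was 1.51 over Gata, 1.48 over Sox and 0.36 over Tbx genes in mTEChi, and 1.03, 1.18 and 0.09 in mTEClo, against 0.00 and -0.01 over all genes. Of the 12 shared genes, 9 had a promoter window, with a median of 19 CpG (3 in Sox5 to 35 in Sox12). Gata6 and Sox18 had 4 counts and 1 count in all mTEClo Ctrl libraries and could pass the low-count filter only through groups where they were higher. With 10 counts required in every library of a group, 12 members were higher and 1 lower in mTEClo. In mTEChi, 15 were then higher and 2 lower.

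**Figure D2:**
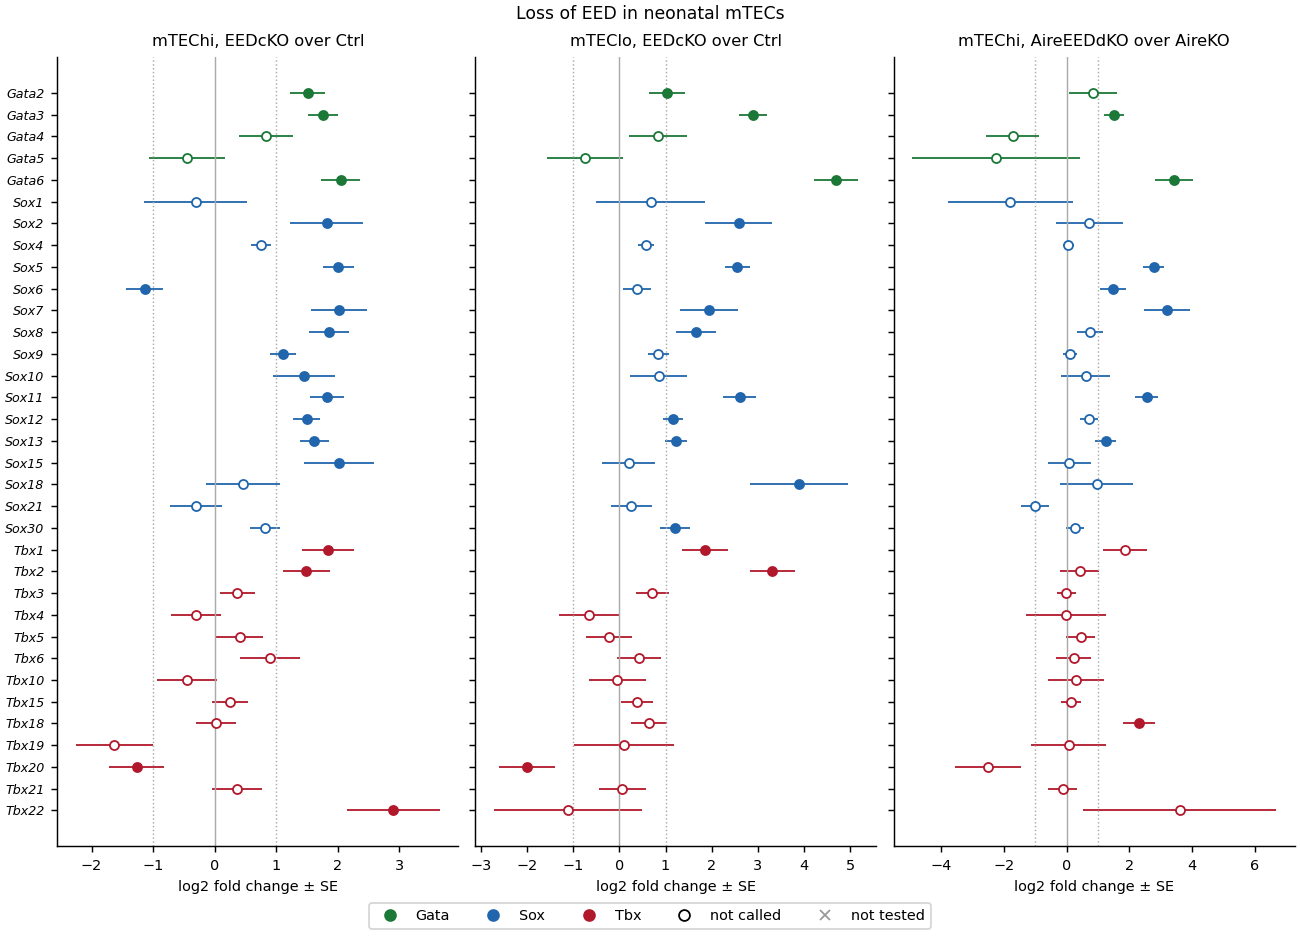
Log2 fold change upon loss of EED for each tested member, with bars of 1 SE, in mTEChi (3 EEDcKO, 5 Ctrl libraries), mTEClo (4 and 3) and in mTEChi that also lack Aire (3 AireEEDdKO, 3 AireKO). Filled points passed the test with at least a 2-fold change and open points did not. Most filled Gata and Sox points lie to the right of 0, and the Tbx points sit mostly around it.

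Gata6, an endoderm and heart factor, showed the largest change in mTEClo. Its values were 0.338, 0.701 and 0.563 CPM in Ctrl (4 counts in all) and 14.1, 14, 15.6 and 14.9 in EEDcKO, a log2 change of 4.69 ± 0.48 (SE; edgeR, adjusted p = 3.44e-07) and a pooled ratio of 28.1 (95% counting interval 10.8 to 104). Every EEDcKO library lay far above every Ctrl library. In mTEChi it stood at 3.38, 2.89, 2.75, 2.9 and 3.51 CPM in Ctrl and at 13.6, 8.53 and 17 in EEDcKO (2.05 ± 0.32, adjusted p = 5.25e-05), again without overlap. In Ctrl its level was higher in mTEChi than in mTEClo by 2.46 ± 0.56 on the log2 scale (adjusted p = 0.00181), and in EEDcKO the difference was -0.19 ± 0.30 (adjusted p = 0.648). The change in mTEChi was smaller than that in mTEClo by 2.65 ± 0.64 on the log2 scale (adjusted p = 0.0297), the only member out of 34 for which this difference was called, against 1.58% of all genes. That call was lost with 5 of 15 libraries left out in turn (mTEChi Ctrl replicate 5, mTEChi EEDcKO replicate 2, and each of mTEClo Ctrl replicates 1, 2 and 3; adjusted p between 0.0502 and 0.126), in DESeq2 (0.0515) and with a replicate block (0.101).

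Gata3, needed for T cells and for the parathyroid and thymus primordium, rose in both. In mTEClo it stood at 11.5, 10.9 and 5.63 CPM in Ctrl and 59.9, 86.2, 74.6 and 69.7 in EEDcKO (log2 2.90 ± 0.30, adjusted p = 3.88e-07), and in mTEChi at 14.1, 13.3, 23.7, 17.2 and 19.9 in Ctrl and 43.4, 42 and 97.5 in EEDcKO (1.76 ± 0.25, adjusted p = 1.95e-05). The groups did not overlap in either, and mTEChi EEDcKO replicate 3 was the highest. Gata2, a factor of blood progenitors, rose from 12.7 to 20.2 CPM in the 5 mTEChi Ctrl libraries to 44, 52.9 and 39.9 in EEDcKO (1.51 ± 0.28). In mTEClo it stood at 5.74, 5.61 and 1.69 CPM in Ctrl and 8.08, 10.1, 11.1 and 8.33 in EEDcKO, a change of 1.03 ± 0.38 (adjusted p = 0.0451) whose call did not hold when any 1 library other than EEDcKO replicate 1 was left out (log2 0.66 to 1.18). Gata4 and Gata5 did not pass the test in either cell kind; Gata4 was uneven in mTEChi EEDcKO at 73.7, 15.3 and 49.7 CPM, against 17.2 to 31.2 in Ctrl.

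Among Sox genes, Sox11 and Sox5 rose most clearly. Sox11, a SoxC gene of developing neurons, stood at 7.77, 9.12 and 2.81 CPM in mTEClo Ctrl and 39.7, 49.2, 39.7 and 41.6 in EEDcKO (log2 2.61 ± 0.36, adjusted p = 1.37e-05), and at 16.3 to 24.8 in mTEChi Ctrl against 51.4, 45.1 and 106 in EEDcKO (1.82 ± 0.28). Sox5, a SoxD gene that assists Sox9 in cartilage, stood at 6.08, 7.72 and 7.31 CPM in mTEClo Ctrl and 36, 47.1, 37.7 and 44.7 in EEDcKO (2.55 ± 0.27, adjusted p = 4.08e-07), and at 3.17 to 8.44 in mTEChi Ctrl against 18, 22.5 and 18.2 (2.01 ± 0.25). No Ctrl library reached an EEDcKO library for either gene. The other SoxD genes differed from Sox5. Sox13 rose in mTEChi from 5.06 to 11 CPM in Ctrl to 13, 28.4 and 27.1 (1.62 ± 0.23), whereas Sox6 was lower there, at 14.3, 6.78 and 7.23 CPM against 16.2 to 23.9 in Ctrl (-1.14 ± 0.30, adjusted p = 0.00634). The Sox6 call was lost without EEDcKO replicate 2 or replicate 3. In mTEClo Sox13 stood at 12.8, 15.4 and 15.2 CPM in Ctrl and 28.6, 42, 32.2 and 32.6 in EEDcKO (1.22 ± 0.24). All 3 SoxC genes had higher means in mTEChi EEDcKO, with Sox12 at 13.6, 21 and 11.6 CPM against 3.94 to 7.39 in Ctrl (1.50 ± 0.22), and Sox4 at 179, 275 and 261 CPM against 130 to 149 in Ctrl, short of a 2-fold change.

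SoxE genes, which direct neural crest, cartilage and testis, were also higher in mTEChi. Sox8 stood at 21.7, 39.4 and 34 CPM in EEDcKO and 6.93 to 10.1 in Ctrl (log2 1.85 ± 0.33, adjusted p = 0.000194), without overlap, and in mTEClo at 5.39, 9.34, 17.5 and 7.57 against 5.4, 2.81 and 0.563 (1.66 ± 0.44). Sox9 stood at 133, 168 and 249 CPM against 69.7 to 112 (1.11 ± 0.21). Sox10, the factor of glia and melanocytes, stood at 8.67, 5.69 and 38.7 CPM against 1.69 to 8.53, and its call was lost without EEDcKO replicate 3 (log2 0.09, adjusted p = 0.929), Ctrl replicate 1 or Ctrl replicate 2. EEDcKO replicate 3, from mice of 1 day, was also the highest for Sox7 (6.81, 16.8 and 37.1 CPM), Sox2 (4.96, 5.91 and 12.6) and Tbx22 (1.24, 4.81 and 38.1). Without it 12 members were called in place of 18, 11 of them among the 18, and the calls of Sox2, Sox6, Sox7, Sox9, Sox10, Tbx20 and Tbx22 were lost. In mTEClo the pluripotency factor Sox2 stood at 0.676, 2.1 and 1.13 CPM in Ctrl and 8.76, 14.4, 3.2 and 6.81 in EEDcKO (2.58 ± 0.73, adjusted p = 0.00997), a call lost without Ctrl replicate 1, as were those of Gata2, Sox7, Sox12, Sox18, Sox30 and Tbx1, which left 9 members called in place of 15.

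SoxF genes, which act in blood and lymph vessels, and the single-gene groups of Sox15 and Sox30 had low counts. Sox7 stood at 2.03, 2.1 and 2.25 CPM in mTEClo Ctrl and 4.71, 2.87, 17.7 and 6.31 in EEDcKO (log2 1.94 ± 0.62, adjusted p = 0.0203), a call lost without any 1 of the 3 Ctrl libraries or EEDcKO replicate 3, which was the highest. Sox18 had 1 count in the 3 mTEClo Ctrl libraries and stood at 0.337, 0.719, 4.91 and 3.53 CPM in EEDcKO, a pooled ratio of 21.1 (95% counting interval 3.57 to 853) with 1 EEDcKO library inside the Ctrl range, and its call was lost without Ctrl replicate 1 or 2. Sox30, a testis gene, stood at 1.35, 2.81 and 1.69 CPM in mTEClo Ctrl and 4.38, 4.31, 4.05 and 5.55 in EEDcKO (1.20 ± 0.32, adjusted p = 0.00835), without overlap. Sox15 stood at 1.12, 0, 1.65, 0.264 and 2.11 CPM in mTEChi Ctrl and 3.1, 5.91 and 4.72 in EEDcKO (2.02 ± 0.57, adjusted p = 0.00931), a call lost without EEDcKO replicate 2.

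Of the T-box genes, Tbx2 and Tbx1 rose and Tbx20 fell. Tbx2, a repressor that counters senescence, stood at 0.338, 2.1 and 2.25 CPM in mTEClo Ctrl and 15.8, 20.5, 8.53 and 15.7 in EEDcKO (log2 3.31 ± 0.49, adjusted p = 3.03e-05), and at 2.75 to 4.49 in mTEChi Ctrl against 9.91, 10.1 and 9.75. Tbx1, the pharyngeal factor whose loss prevents normal thymus formation, stood at 2.03, 2.1 and 3.38 CPM in mTEClo Ctrl and 6.74, 10.4, 10.9 and 7.32 in EEDcKO (1.86 ± 0.50). The groups overlapped for neither gene. Tbx20 stood at 24.8, 27.2, 25.3, 24.6 and 25.3 CPM in mTEChi Ctrl and at 11.2, 16 and 4.09 in EEDcKO (-1.27 ± 0.45, adjusted p = 0.033). The Tbx20 call was lost without mTEChi Ctrl replicate 2, EEDcKO replicate 1 or EEDcKO replicate 3. In mTEClo it stood at 5.74, 8.42 and 2.81 CPM in Ctrl and 0.337, 0, 3.84 and 0.757 in EEDcKO (-1.999 ± 0.603, adjusted p = 0.0145), where 1 EEDcKO library lay inside the Ctrl range, and the call was lost without Ctrl replicate 2 (adjusted p = 0.0942). Tbx3, Tbx5, Tbx15 and Tbx21 did not pass the test in either cell kind.

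**Figure D3:**
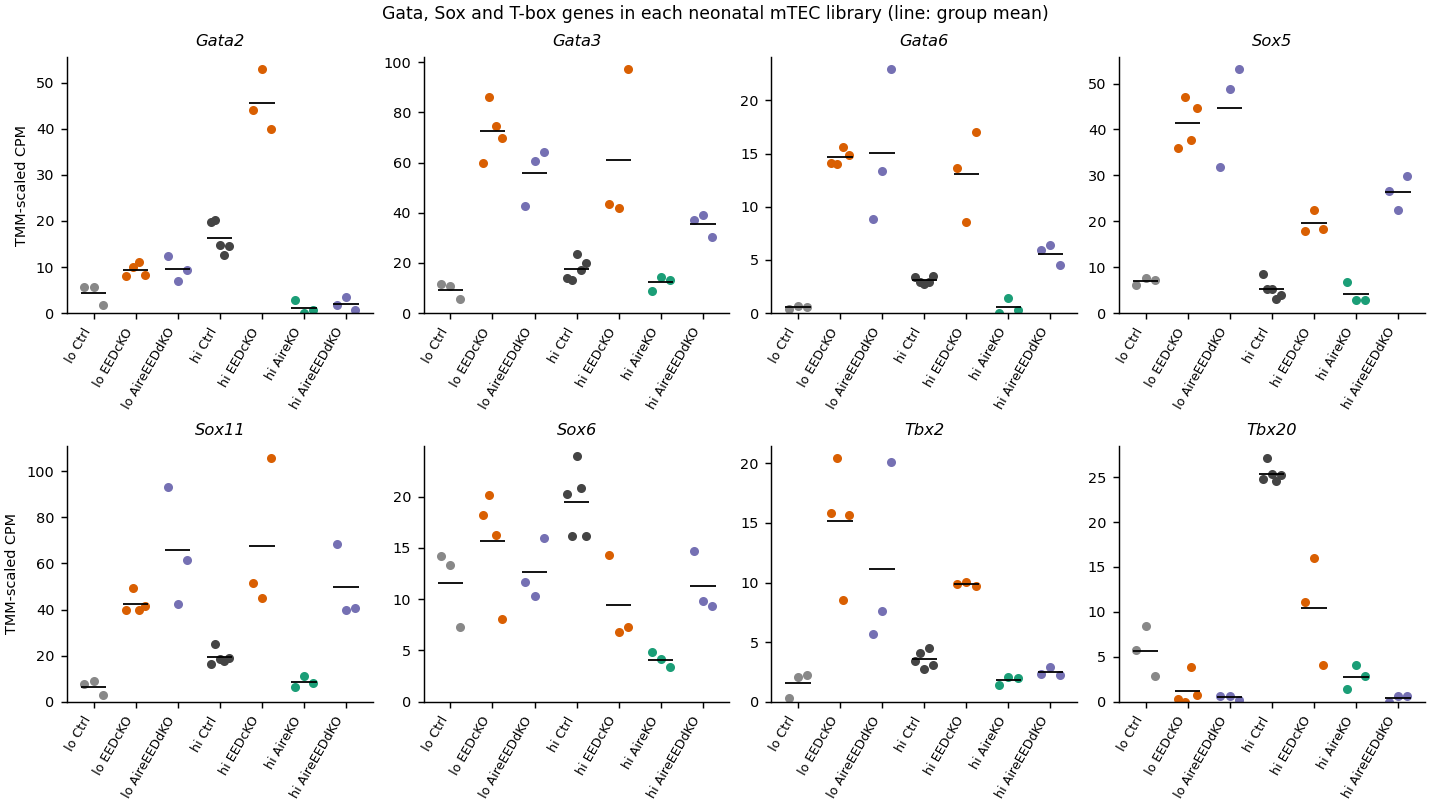
TMM-scaled CPM of 8 members in each of the 24 neonatal libraries, by cell kind and genotype; each point is a library and each line the group mean. Sox5 and Sox11 are high in all groups without EED. Gata6 is high in these groups except mTEChi AireEEDdKO, where it lies between mTEChi Ctrl and mTEChi EEDcKO. Gata2 is high in mTEChi EEDcKO and near 0 in both mTEChi groups without Aire, and Tbx20 is highest in mTEChi Ctrl.

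Other cells' markers moved in these comparisons. Summed mesenchymal markers rose from 469 to 512 CPM in mTEChi Ctrl to 775 to 1078 in EEDcKO (3 of 11 called higher, Col1a2, Col1a1 and Pdgfra), and in mTEClo from 408 to 551 to 978 to 1481 (6 higher, 1 lower). Cortical epithelial markers fell in mTEClo from 2362 to 3605 CPM to 456 to 1181 (7 of 8 lower). Of 13 myeloid and dendritic markers, 6 were lower in mTEChi and 3 in mTEClo. Their part in the changes of the Gata, Sox and Tbx genes was not tested.

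Without Aire, loss of EED raised a smaller list. In mTEChi, AireEEDdKO had 8 members higher than AireKO, where 6.69% of all genes were called higher and 2.78% lower. edgeR called 0 members lower (2 at an unadjusted p under 0.05), and DESeq2 called 0. They were Gata3, Gata6, Sox5, Sox6, Sox7, Sox11, Sox13 and Tbx18, and 6 of them (75%) were also among the 16 higher members of mTEChi EEDcKO (37.5% of those), all but Sox6 and Tbx18. Sox5 stood at 6.85, 2.76 and 2.83 CPM in AireKO and 26.5, 22.5 and 29.8 in AireEEDdKO (log2 2.77 ± 0.33, adjusted p = 5.23e-06), and Sox11 at 6.17, 11 and 8.19 against 68.3, 39.9 and 40.7 (2.54 ± 0.38). Gata6 had 3 counts in AireKO and stood at 5.89, 6.35 and 4.49 CPM in AireEEDdKO, a pooled ratio of 11.5 (95% counting interval 3.62 to 58.4). Sox7 stood at 0.685, 2.07 and 1.41 CPM against 20.6, 7.51 and 11.6 (3.19 ± 0.72, adjusted p = 0.00356). The groups overlapped for none of these genes. Tbx18, a factor of the sinoatrial node, stood at 2.74, 1.38 and 0.848 CPM in AireKO and 9.42, 6.93 and 6.09 in AireEEDdKO (2.31 ± 0.52), beside 6.6 to 10.3 CPM in Ctrl. Its change in EEDcKO against Ctrl was 0.02 ± 0.32 (adjusted p = 0.964), and the difference between the changes, 2.28 ± 0.62, did not pass the test (adjusted p = 0.0598). Mesenchymal markers, summed, stood at 365 to 462 CPM in AireKO and 640 to 823 in AireEEDdKO (3 of 11 higher, 0 lower). Their part in the members' changes was not tested.

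Gata2 was low in both groups without Aire. It stood at 2.74, 0 and 0.565 CPM in AireKO and 1.77, 3.47 and 0.642 in AireEEDdKO, a change of 0.84 ± 0.77 (adjusted p = 0.51), beside 44, 52.9 and 39.9 CPM in EEDcKO. Gata5 had no count in any of the 3 AireEEDdKO libraries. Sox6 responded to loss of EED in opposite directions, falling with Aire present and rising from 4.8, 4.13 and 3.39 CPM in AireKO to 14.7, 9.82 and 9.3 in AireEEDdKO (1.48 ± 0.41, adjusted p = 0.0143). The EED change was larger without Aire by 2.62 ± 0.51 (adjusted p = 0.0166), the only member of 34 for which this was called in edgeR, against 1.25% of all genes. The difference was lost without AireEEDdKO replicate 1 (adjusted p = 0.0551) or AireKO replicate 3 (0.067). The rise in AireEEDdKO was lost without the same libraries, and that of Sox13 without AireEEDdKO replicate 1, AireKO replicate 2 or AireKO replicate 3.

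In mTEClo, AireEEDdKO and Ctrl libraries came from pups of 4 to 6 and 1 to 3 days, so genotype and age cannot be told apart. There, 17 members were higher and 2 lower (12.4% and 8.2% of all genes). Gata6 stood at 8.83, 13.3 and 22.9 CPM (log2 4.74 ± 0.49), Sox11 at 93.1, 42.3 and 61.6 (3.23 ± 0.37) and Sox5 at 31.9, 48.9 and 53.2 (2.67 ± 0.28), all above every Ctrl library. Tbx20 stood at 0.631, 0.616 and 0.232 CPM. With age class as a term, 12 of the 19 calls were left. Mesenchymal markers, summed, stood at 907 to 1692 CPM in AireEEDdKO and 408 to 551 in Ctrl (7 of 11 higher), and cortical epithelial markers at 459 to 551 and 2362 to 3605 CPM (7 of 8 lower). Their part in the members' changes was not tested.

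Most Gata genes and several T-box genes were lower, and Sox9 and Sox21 higher, in mTEChi without Aire, in adults and in neonates. In adults 13 members were lower and 4 higher in AireKO than in WT, where 17.8% of all genes were called lower and 5.63% higher. In neonates 11 were lower and 2 higher than in Ctrl (12.8% and 3.56%). Gata2, Gata5, Tbx4, Tbx19 and Tbx22 each had 0 to 4 counts over the adult AireKO mTEChi libraries. They could pass the low-count filter only through groups where they were higher. With 10 counts required in every library of a group, 5 adult members were lower and 2 higher. In neonatal mTEChi AireKO, Gata5, Tbx4 and Tbx19 had 1, 2 and 4 counts in all, so the same limit holds for them. With 10 counts required, 8 neonatal members were lower and 2 higher. The 7 members lower at both ages, 53.8% of the adult and 63.6% of the neonatal list, were Gata2, Gata4, Gata5, Sox6, Tbx4, Tbx19 and Tbx20. The median log2 change of the Gata genes was -2.98 in adults and -2.60 in neonates, of the Sox genes -0.44 and -0.58 and of the Tbx genes -0.99 and -1.44, against -0.01 and 0.03 over all genes. The adult AireKO libraries are those without mitochondrial counts, and the neonatal ones have them. With library kind as a term, estimated from the mTEClo AireKO libraries, 10 adult members were called, 8 of them among the 17, and Sox4, Tbx1 and Tbx20 changed direction. In those mTEClo libraries the replicates with mitochondrial counts came from mice of 5 weeks and those without from mice of 6 weeks, so library kind and age cannot be told apart in that term. Scaled by library size alone, 1 adult member was higher and 14 were lower, and with RLE size factors 2 were higher and 14 lower. With age in weeks as a term, 1 was higher and 12 were lower, with 12 of the 17 calls kept. At most 1 of the 4 higher members thus kept its call. The AireKO mice were of 5 to 6 weeks and the WT mice of 4 to 5. Sox9 (log2 0.85) and Sox21 (0.87) were under 2-fold in adults when scaled by library size alone. In neonates, the AireKO mTEChi libraries came from pups of 4 to 6 days and the Ctrl ones from pups of 1 to 6 days. With age class as a term, 9 neonatal members were lower and 2 higher. With a replicate block, 9 were lower and 1 was higher.

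Markers of other cells moved upon loss of Aire too. In adult mTEChi, thymocyte markers, summed, stood at 103.5 to 136.9 CPM in WT and 53.4 to 69.2 in AireKO (7 of 9 tested lower), and mesenchymal markers at 340 to 497 and 233 to 252 CPM (7 of 10 lower, 1 higher). Of myeloid and dendritic markers 7 of 12 were lower and 2 higher, while their sum was higher in AireKO (416 to 469 against 338 to 406 CPM), and of endothelial markers 3 of 8 were lower and 1 higher. In neonates 5 of 13 myeloid and dendritic markers were lower and 1 higher (341 to 388 CPM in Ctrl, 311 to 458 in AireKO), and 4 of 11 mesenchymal markers were lower and 2 higher (469 to 512 and 365 to 462 CPM). In adult mTEClo, cortical epithelial markers stood at 438 to 539 CPM in WT and 595 to 770 in AireKO (5 of 8 higher). The part of these markers in the members' changes was not tested.

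Gata2 ranged from 6.82 to 12.5 CPM (median 8.4) in adult WT and stood at 0, 0.409, 0 and 0.835 in AireKO (166 counts against 3, a pooled ratio of 29.7 with a 95% counting interval of 9.98 to 145). In neonates it stood at 12.7 to 20.2 CPM in Ctrl and 2.74, 0 and 0.565 in AireKO (log2 -4.02 ± 0.52; edgeR, adjusted p = 1.25e-05). The groups were far apart at both ages. Gata5, a partner of Gata4 in heart and gut, ranged from 2.42 to 9.36 CPM (median 5.1) in adult WT and had no count in AireKO, at least 19.7-fold lower against a floor of 3 counts over the group. In neonates it stood at 5.06, 4.04, 8.8, 5.28 and 7.73 CPM in Ctrl and 0.685, 0 and 0 in AireKO (pooled ratio 42.7, 95% counting interval 7.49 to 1703). Gata4 fell less, from 25.4 to 36.4 CPM (median 33.8) to 11, 12.3, 13 and 18 in adults (-1.26 ± 0.20, adjusted p = 6.59e-06) and from 17.2 to 31.2 to 7.54, 6.89 and 4.8 in neonates (-2.04 ± 0.56, adjusted p = 0.00936, lost without AireKO replicate 3). Gata3 was not called at either age, at 12.6 to 22.1 CPM in adult WT and 21.1, 15.1, 17.5 and 16.3 in AireKO.

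Among T-box genes, Tbx4 ranged from 1.24 to 7.85 CPM (median 5.4) in adult WT and stood at 0.439, 0, 0.685 and 0.418 in AireKO (pooled ratio 13.3, 95% counting interval 5.02 to 49.7), and in neonates at 4.22 to 10.8 in Ctrl against 0, 0.689 and 0.283 (23.9, 6.46 to 200). Tbx19, the pituitary factor of corticotroph cells, ranged from 1.78 to 5.81 CPM (median 4.34) in adult WT, with 1 count in the 4 AireKO libraries (36.5, 6.33 to 1461). In neonates Tbx19 stood at 2.38 to 8.44 CPM in Ctrl against 0, 0 and 1.13 (6.23, 2.31 to 23.6). Both genes were lower in every AireKO library than in any WT or Ctrl library. Tbx22 had no count in adult AireKO, at least 10.9-fold lower than in WT (0 to 4.84 CPM). In neonates it stood at 2.81, 3.46, 2.2, 0 and 2.34 CPM in Ctrl and had no count in AireKO, a difference that did not pass the test (adjusted p = 0.0738). Tbx20 fell by 3.17 ± 0.57 on the log2 scale in neonates, from 24.6 to 27.2 CPM to 1.37, 4.13 and 2.83 (adjusted p = 0.000305). In adults it ranged from 24.6 to 55.2 CPM in WT and stood at 16.2, 13.1, 20.5 and 19.6 in AireKO (-1.04 ± 0.25), a call lost without AireKO replicate 2 or WT replicate 6 and a direction that turned with library kind as a term (1.89). Tbx18 was lower in neonates (-2.59 ± 0.47, adjusted p = 0.000327), and in adults ranged from 3.72 to 9.66 CPM in WT and stood at 2.63, 2.86, 4.79 and 2.51 in AireKO (-0.98 ± 0.33, adjusted p = 0.0123), just short of 2-fold.

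Tbx15 went the other way. This factor of limb skeleton and skin ranged from 42.8 to 52.8 CPM (median 45.9) in adult mTEChi WT and stood at 183, 167, 230 and 242 in AireKO (log2 2.15 ± 0.14, adjusted p = 1.39e-12). It was also the member with the clearest change in adult mTEClo, from 5.37 to 9.67 CPM (median 7.08) to 24.4, 21.9, 31.9 and 47.4 (2.18 ± 0.18, adjusted p = 8.76e-10). No library overlapped in either. In neonatal mTEChi, Ctrl stood at 38.8 to 52.8 CPM and AireKO at 87.7, 67.5 and 72.3, a change of 0.73 ± 0.29 that did not pass the test (adjusted p = 0.0611) although all 3 libraries lay above Ctrl. Tbx21 and Tbx3 had log2 changes short of 2-fold in both ages.

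**Figure D4:**
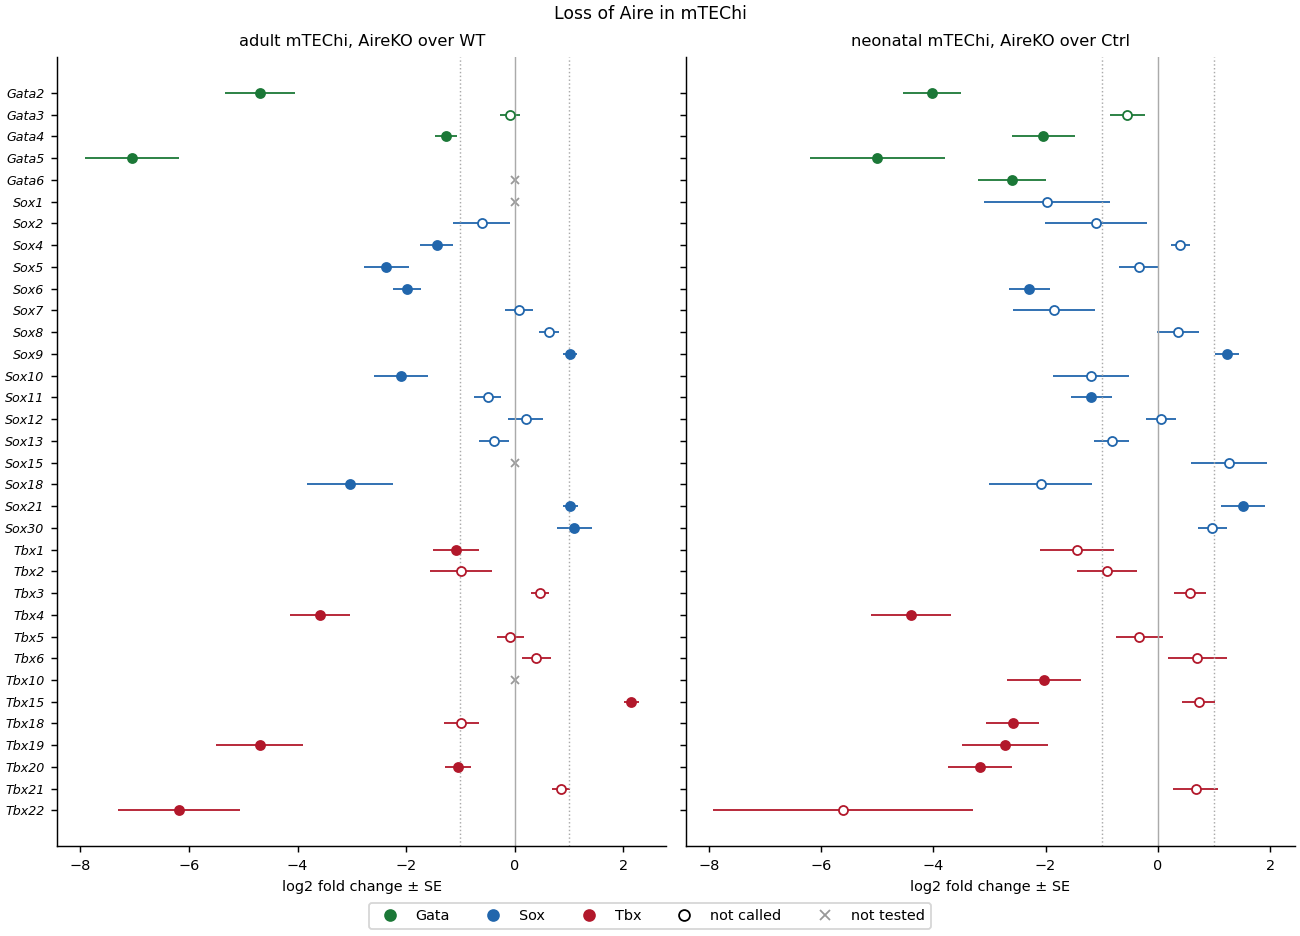
Log2 fold change upon loss of Aire in mTEChi for each tested member, with bars of 1 SE, in adults (4 AireKO, 7 WT libraries) and neonates (3 AireKO, 5 Ctrl). Filled points passed the test with at least a 2-fold change, open points did not, and a cross at 0 marks a gene that was not tested; for genes with no count in AireKO, such as Gata5 in adults, the plotted value depends on the prior count. Gata2, Gata4, Gata5, Sox6, Tbx4, Tbx19 and Tbx20 are filled on the left at both ages, and Sox9 and Sox21 on the right; the adult direction of Tbx20, like that of Sox4 and Tbx1, turned with library kind as a term.

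Sox9 was higher in mTEChi without Aire, from 70.2 to 124 CPM (median 105) in adult WT to 229, 210, 185 and 184 in AireKO (log2 1.02 ± 0.13, adjusted p = 3.74e-07) and from 69.7 to 112 in neonatal Ctrl to 234, 201 and 168 (1.23 ± 0.21, adjusted p = 0.000216), without overlap at either age. The adult change is at the edge of the 2-fold limit and fell under it without AireKO replicate 1 or WT replicates 1, 2 or 4, in DESeq2 (0.98) and with library kind as a term (0.53). Sox21 ranged from 31.1 to 52.5 CPM (median 40.3) in adult WT and stood at 83.8, 71.2, 88 and 96.9 in AireKO (1.03 ± 0.14), a change that also fell under 2-fold without AireKO replicates 3 or 4 or WT replicate 7. In neonates Sox21 stood at 11.8, 15, 17.6, 15.3 and 5.15 CPM in Ctrl and 43.9, 53.7 and 16.7 in AireKO, where AireKO replicate 3 lay within the Ctrl range and the call was lost without replicate 2. Sox6 fell at both ages, from 11.4 to 26.3 CPM (median 16.1) to 4.83, 5.32, 4.11 and 3.34 in adults (-1.99 ± 0.26, adjusted p = 2.6e-07) and from 16.2 to 23.9 to 4.8, 4.13 and 3.39 in neonates (-2.29 ± 0.36). Sox11 was lower in neonates (-1.18 ± 0.37, adjusted p = 0.0191) and had a change of -0.50 ± 0.25 in adults (adjusted p = 0.0881), and the difference between the ages was not tested. The neonatal call was lost without AireKO replicate 1 or replicate 3. Sox10 ranged from 3.6 to 13 CPM in adult WT and stood at 3.95, 0, 2.4 and 2.09 in AireKO (-2.10 ± 0.49, adjusted p = 0.000713), with 1 AireKO library inside the WT range. Sox30 ranged from 1.21 to 4.8 CPM in adult WT and stood at 7.9, 6.14, 11.3 and 5.01 in AireKO (1.10 ± 0.32, adjusted p = 0.00533), and the call was lost without AireKO replicate 3 or WT replicate 4.

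Sox6 was higher, not lower, in adult mTEClo without Aire. It ranged from 1.72 to 4.8 CPM (median 3.27) in WT and stood at 15.7, 17.5, 17.9 and 16 in AireKO (log2 2.24 ± 0.23, adjusted p = 4.71e-08), every AireKO library, of either library kind, lying far above the highest WT library. In this comparison 2 members were higher, Sox6 and Tbx15, and 2 lower, Sox8 and Sox18, where 4.42% and 3.88% of all genes were called higher and lower. Sox8, which matures the microfold cells that sample gut contents, ranged from 16 to 28.6 CPM (median 21.3) in WT and stood at 8.66, 6.89, 10.4 and 12.4 in AireKO (-1.03 ± 0.21, adjusted p = 0.000619). Sox18 ranged from 1.84 to 6.9 CPM in WT and stood at 0, 0, 1.79 and 1.94 in AireKO (-1.66 ± 0.46, adjusted p = 0.00856). Sox8 fell under the 2-fold limit without AireKO replicates 1 or 2 or WT replicates 1 or 2. Of 9 microfold cell genes, 4 were lower beside it, the microfold receptor Gp2 from 207 to 97.5 CPM, Ccl20 from 54.2 to 11.3, Ccl9 from 36.4 to 4.45 and Ccl6 from 29.1 to 9.18. Sox7 had a log2 change of 0.90 ± 0.17 and Sox11 of 0.76 ± 0.21, both under 2-fold.

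Sox4 differed between the 2 kinds of adult AireKO library. In adult mTEClo AireKO it stood at 430 and 413 CPM in the replicates with mitochondrial counts and 108 and 87.2 in those without, a 4.33-fold difference within the group, while WT ranged from 217 to 364 (median 325). The former came from mice of 5 weeks and the latter from mice of 6 weeks, so library kind and age cannot be told apart in this difference. Its lower value in adult mTEChi, from 146 to 192 CPM in WT to 76.8, 68.7, 47.2 and 54.3 in AireKO (log2 -1.43 ± 0.30, adjusted p = 0.000243), was measured in libraries of both ages that all lack such counts, and the value was 0.68 with library kind as a term. In neonates, where all libraries had mitochondrial counts, Sox4 stood at 208, 189 and 170 CPM in AireKO against 130 to 149 in Ctrl (0.40 ± 0.16, not called). Sox11 (1.76-fold) and Tbx21 (2.37-fold) were also higher in the 2 mTEClo AireKO libraries with mitochondrial counts, and Gata3 was lower in them (11.4 against 22.1 CPM). Tbx15 (23.1 against 39.6), Sox9 (263 against 369) and Sox30 (2.65 against 5.47) were lower in them too, without overlap. These 3 were called higher in adult mTEChi AireKO, where all libraries lack such counts. Sox21, also called higher there, went the other way (20.1 against 13.8). Without overlap, Sox8 and Tbx6 were lower and Tbx3 higher in the libraries with such counts. For Sox6 (16.6 and 17 CPM) and Sox7 (45.7 and 47.2) the libraries overlapped.

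**Figure D5:**
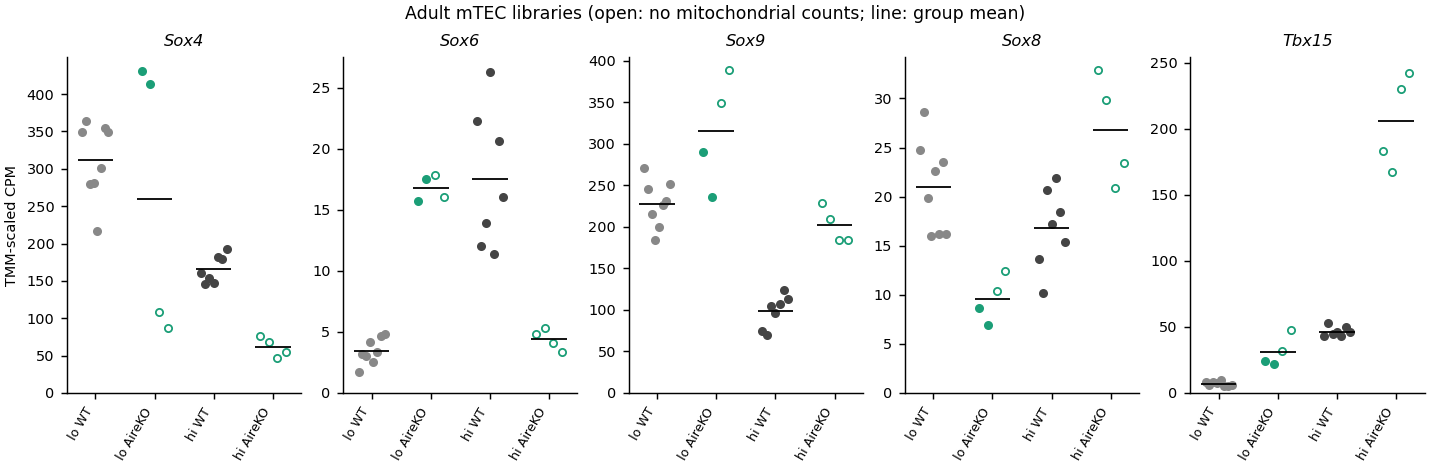
TMM-scaled CPM of 5 members in each of the 23 adult libraries; each point is a library, open points are libraries without mitochondrial counts, and lines are group means. Sox4 is low in the open points, Sox6 is high in mTEClo AireKO and mTEChi WT, and Tbx15 is higher in AireKO in both cell kinds.

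Partners and targets of these factors, taken from lists that the rule did not use, moved with them in some comparisons and not in others. Of 11 tested Gata cofactors, 7 were higher in mTEChi EEDcKO, with a median log2 change of 1.13; Zfpm1, the FOG1 cofactor, rose from 26.1 to 83.1 CPM and the blood factor Runx1 from 53.1 to 176. In mTEClo 5 of 11 were higher. Over all genes, 8.48% were called higher in mTEChi EEDcKO and 9.51% in mTEClo EEDcKO. Of the T-box genes with other names, Brachyury (T) fell from 17.3 to 0.102 CPM in adult mTEChi AireKO and from 13.9 to no count in neonates, Eomes rose from 7.61 to 39.2 CPM in adults, and Tbr1 rose from 5.48 to 13.9 in neonatal mTEChi EEDcKO. Cartilage genes that Sox9 is known to activate moved against Sox9 upon loss of Aire: 9 of 11 tested were lower in adult mTEChi AireKO (Acan from 58.3 to 0.313 CPM, Col2a1 from 40.5 to 5.01) and 7 of 11 in neonates. In mTEChi EEDcKO, where Sox9 was also higher, 4 of 11 were higher, among them Col9a2 (6.56 to 32.7 CPM) and Matn1 (13.2 to 49.8). Of 9 tested genes of glia and neural crest, the Sox10 lineage, 5 were lower in neonatal mTEChi AireKO, where Sox10 was not called. In adult mTEChi AireKO, where Sox10 was lower, 3 were lower and 1 higher, and in mTEChi EEDcKO 1 was higher and 1 lower. With Gata3 higher in mTEChi and mTEClo EEDcKO, 0 of 4 parathyroid genes were called. With Sox8 higher in mTEChi EEDcKO, 0 of 9 microfold cell genes were called there. Over all genes, 17.8% were called lower in adult and 12.8% in neonatal mTEChi AireKO.

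The remaining members had few counts or no call. In adults Gata1, Gata6, Sox1, Sox3, Sox14, Sox15, Sox17 and Tbx10 were not tested, with at most 6, 8, 13, 5, 1, 8, 6 and 18 counts in a library, in that order. In neonates Gata1, Sox3, Sox14 and Sox17 were not tested, with at most 3, 13, 15 and 16. Over the 11 comparisons of groups, 32 of the 38 members were called at least once, all except Gata1, Sox1, Sox3, Sox14, Sox17 and Tbx6. Tbx6, a factor of the early somites, stood at 2.4 to 6.63 CPM in adult WT libraries. Among the untested neonatal members, Sox14, a SoxB2 gene of interneurons, had 0 counts in the 3 mTEClo Ctrl libraries and stood at 4.38, 2.87, 0.213 and 1.51 CPM in EEDcKO. Sox17, the SoxF factor of endoderm, stood at 0, 0, 0.55, 0.264 and 0.468 CPM in mTEChi Ctrl and at 6.81, 1.31 and 5.03 in EEDcKO. Sox17 was above every Ctrl library. Sox14 rested on few counts, and its 0.213 CPM is 1 count, under the 0.635 CPM that 3 counts come to in that library. No test was made of either gene.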

How the data were processed

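RNA-seq read counts per gene were analysed from 23 adult and 24 neonatal libraries of sorted mTECs. The authors trimmed reads with fastp 0.20.0, aligned them to mm10 with STAR 2.7.3a, kept alignments of mapping quality 5 or more (SAMtools 1.9), removed duplicates (Picard 2.21.1) and counted them without strand (HTSeq 0.11.2), and they deposited whole-number raw counts; the annotation release is not given in the sources used here. Each table was fitted whole in R 4.3.3 with edgeR 4.0.16 (low counts filtered by filterByExpr, TMM scaling, 1 mean per group, quasi-likelihood test) and p-values were adjusted by the Benjamini-Hochberg method over all genes tested, so that every adjusted p is edgeR's unless another tool is named. Calls required an adjusted p below 0.05 together with a change of 2-fold or more. CPM values carry the TMM scaling. Library values were to be given for the 5 called members with the largest log2 change in each comparison and for members averaging at least 10 CPM in a group, of which the main comparisons are shown; other members are given by range or count, and list genes could be named where called. The members and lists were chosen with earlier results of these data known. Alternatives were DESeq2 1.42.0, other scalings and filters, covariates, a replicate block and leaving out each library, and a term for library kind was chosen after seeing the data. The procedure was tested on simulated data. Counting intervals and floors (3 counts, 95%) cover counting error only. Same-numbered libraries deviated together (each correlation above 0.1) between adult AireKO mTEChi and mTEClo and between neonatal mTEChi AireEEDdKO and AireKO. In the neonatal pair each best match had the same number, while adult mTEChi replicates 1 and 3 best matched mTEClo replicates 2 and 4. Neonatal mTEClo AireEEDdKO and Ctrl also matched best by number, at correlations of 0.0554 to 0.168. No other comparison matched by number in all its replicates.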

Additional observations from a re-analysis of the deposited data

Results flagged for a closer look

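Each member averaging at least 10 CPM in a group of 4 to 10 libraries was checked there by Dixon's test, 70 sets of values in all. In 3 of the 70 (4.29%), 1 library stood apart from the rest, and chance gives about 1 in 20. The sets share libraries and are not independent. Sox4 was lowest in neonatal mTEChi Ctrl replicate 2 (130 CPM, the others 144 to 149). Tbx20 was highest in the same library (27.2 CPM, the others 24.6 to 25.3), whose removal ended the Tbx20 call upon loss of EED in mTEChi. Tbx21 was lowest in adult mTEChi WT replicate 1 (41.5 CPM, the others 56.4 to 66.8).

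Loss of EED changed 2 members differently between settings by a test of the difference. For Gata6 the log2 change in mTEChi was smaller than in mTEClo (-2.65, edgeR adjusted p = 0.0297). For Sox6 the log2 change in mTEChi was larger without Aire than with it (2.62, edgeR adjusted p = 0.0166). The Gata6 call was lost without mTEChi Ctrl replicate 5, mTEChi EEDcKO replicate 2 or any of the 3 mTEClo Ctrl libraries (-2.33 to -2.89), and the Sox6 call without AireEEDdKO replicate 1 (2.38) or AireKO replicate 3 (2.43).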

How the results depend on the processing

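Of 1446 member changes refitted without 1 library, 1315 kept their call and direction, 130 lost the call and 1 reversed (Sox10 between EEDcKO mTEChi and mTEClo, -0.0499 without mTEChi EEDcKO replicate 3, and up to 1.897 in the other such fits). DESeq2 kept 158 of 167 and the fit with only the groups compared 127 of 140. The totals without 1 library and with only the groups compared leave out members that no longer passed the low-count filter. They thus understate the losses. Between adult WT mTEChi and mTEClo, Tbx22 was refitted in 5 fits and Gata2 in 15. With only the groups compared, adult AireKO mTEChi against mTEClo kept 14 of 20 calls, and mTEClo EEDcKO against Ctrl 10 of 15. The number of members called ranged, when 1 library was left out, over 13 to 17 (main value 17) for loss of Aire in adult mTEChi, 3 to 6 (4) in adult mTEClo, 16 to 21 (21) for adult WT and 16 to 20 (20) for adult AireKO mTEChi against mTEClo. It ranged over 12 to 19 (18) for loss of EED in mTEChi, 9 to 15 (15) in mTEClo, 6 to 9 (8) without Aire, 11 to 14 (13) for loss of Aire in neonatal mTEChi, 15 to 19 (19) for mTEClo AireEEDdKO, 13 to 17 (16) and 11 to 17 (14) for mTEChi against mTEClo in Ctrl and EEDcKO, and 0 to 2 (1) for each difference between EED changes.

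With 10 counts required in every library of a group, fewer genes were tested and 7 members were called in adult mTEChi AireKO and 13 between adult WT mTEChi and mTEClo. With library kind as a term, 10 were called in adult mTEChi AireKO and 7 in adult mTEClo AireKO. In the former, Sox4 (0.68), Tbx1 (0.48) and Tbx20 (1.89) reversed. With age in weeks as a term, 13 were called in adult mTEChi AireKO, 1 higher and 12 lower. Adult mTEClo AireKO had 9 calls by adjusted p alone and 7 with only libraries that have mitochondrial counts. Adult AireKO mTEChi against mTEClo had 12 with only libraries without them, and mTEClo AireEEDdKO had 12 with age class as a term. The difference between EED changes without and with Aire had 2 calls in DESeq2 and 2 with no filter. Except where fewer genes or samples entered, the cause was not tested. With library size alone, the median log2 change of all genes upon loss of Aire in mTEChi was -0.176 in adults (main value -0.0149) and -0.18 in neonates (0.0346), and that between adult AireKO mTEChi and mTEClo was -0.13 (0).

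With a replicate block, 152 of 167 member changes kept their call. The counts were 15, 5, 20 and 20 in the adult comparisons, in the order above, and 16, 13, 8, 10, 19, 16 and 15 in the neonatal ones. Both pairs of groups whose same-numbered libraries each correlated above 0.1 kept all their calls (20 of 20 and 8 of 8). Each difference between EED changes had 1 call, Sox6 in place of Gata6 for mTEChi against mTEClo. Depth limits the low members: 3 counts, the upper limit that a count of 0 allows, came to 0.723 to 1.9 CPM in an adult and 0.612 to 2.05 CPM in a neonatal library.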
